A study of Mus musculus with 6 samples.

Results

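The 9 genes described here make the ceramides and other lipids that seal the outer layer of mouse skin, and were compared between wild type and YAP2-5SA-∆C transgenic skin. They are *Elovl4*, *Cers3*, *Pnpla1*, *Ugcg*, *Abca12*, *Smpd1*, *Alox12b*, *Aloxe3* and *Sdr9c7*. They were chosen by name, as genes known for this pathway, and each was matched to its row of the count table by its Ensembl identifier in GENCODE M21 on GRCm38. All 9 were found among 26579 genes in the table, and all 9 were among the 15102 genes with enough reads to be tested.

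The study asked which genes change in mouse skin when YAP, a transcriptional cofactor of the Hippo pathway, is active in the epidermis. RNA-Seq was carried out on whole biopsies of dorsal neck skin from 3 YAP2-5SA-∆C and 3 wild type female littermates at postnatal day 33. Basal keratinocytes positive for Keratin5 and Keratin14 express the transgene, a mildly activated YAP mutant protein, and the biopsies were taken at the early onset of the visible skin phenotype. Wild type littermates carry no transgene, and no other allele or treatment is given for either group. In a whole biopsy, fewer cells of a type and less RNA per cell cannot be told apart.

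In the upper epidermis, keratinocytes build ceramides with unusually long acyl chains and secrete them from lamellar bodies into the space between the cornified cells. ELOVL4 extends the fatty acids, CERS3 joins them to a sphingoid base, and PNPLA1 attaches linoleic acid to the far end of the chain to form acylceramide. UGCG adds glucose, ABCA12 loads the lipids into lamellar bodies, and after secretion enzymes such as the acid sphingomyelinase SMPD1 release the ceramides again. ALOX12B, ALOXE3 and SDR9C7 then oxidise the linoleate in turn, a step towards the covalent attachment of ceramide to the cornified envelope. Inherited loss of many of these genes causes ichthyosis, a scaly skin with a leaky barrier.

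Total counts per library ranged from 11225705 to 19505036. Values are CPM, reads of a gene scaled to library size with the TMM factors of edgeR, and replicate values are listed in the order of replicates 1, 2 and 3. The YAP2-5SA-∆C samples are also called transgenic. Log2 fold changes are YAP2-5SA-∆C over wild type, and the FDR is the Benjamini-Hochberg adjusted p-value of edgeR's quasi-likelihood test over all 15102 genes, with a threshold of 0.05. *Yap1* had 124.7 to 141.7 CPM in wild type against 129.6 to 144.1 CPM in transgenic skin (FDR = 0.635), and whether transgene reads count towards it is unknown. The summed CPM of 9 hair shaft and inner root sheath genes ranged from 13130 to 16370 in wild type and from 1443 to 8833 in transgenic skin, and was lowest in YAP2-5SA-∆C replicate 2. Skeletal muscle genes summed to 987.2 to 5871 CPM over the libraries. Of the marker lists, the quasi-likelihood test called 1 of 6 basal, 0 of 6 spinous and 0 of 6 granular keratinocyte genes, 2 of 4 stress keratinocyte, 1 of 7 sebaceous gland and 2 of 6 macrophage and leukocyte genes, all higher, and 0 of the hair, muscle, adipocyte and fibroblast genes. That test called 1.44% of all tested genes higher and 0.464% lower. All 9 hair genes were lower in each transgenic library, as 18.2% of all tested genes were. Of the hair genes, 8 were lower at an unadjusted p below 0.05 in that test, as 13.0% of all tested genes were.

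None of the 9 barrier lipid genes passed the quasi-likelihood test, in which 1.91% of all tested genes were called. All the same, 7 of the 9 were higher in each YAP2-5SA-∆C library than in any wild type library, a pattern that 15.5% of all tested genes showed. The largest fold was that of *Elovl4*, at 2.13, followed by *Alox12b* at 1.65, *Abca12* at 1.54 and *Sdr9c7* at 1.51. *Pnpla1* and *Aloxe3* were the 2 genes whose groups overlapped. At an unadjusted p below 0.05 in the quasi-likelihood test, 6 genes were higher and 0 lower, where 13.3% of all tested genes were higher. At an FDR below 0.1, 5 genes were higher, where 7.26% of all tested genes were.

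The other tests differed in their calls. The likelihood-ratio test of edgeR called 4 of the 9 genes, *Elovl4*, *Abca12*, *Alox12b* and *Sdr9c7*, all of them higher, where it called 5.52% of all tested genes higher. DESeq2 called the same 4 genes, where it called 6.34% of all tested genes higher. Voom called 0 of the 9 and 1.23% of all tested genes higher. The quasi-likelihood test called *Elovl4* alone of the 9 with upper-quartile factors, where it called 2.24% of all tested genes higher, and with no filter on low counts, where it called 1.40%. A fitted log2 fold change above 0 was found for 8 of the 9 genes and 47.6% of all tested genes. The median log2 fold change was 0.32 over the 9 genes and -0.01 over all tested genes.

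**Figure D1:**
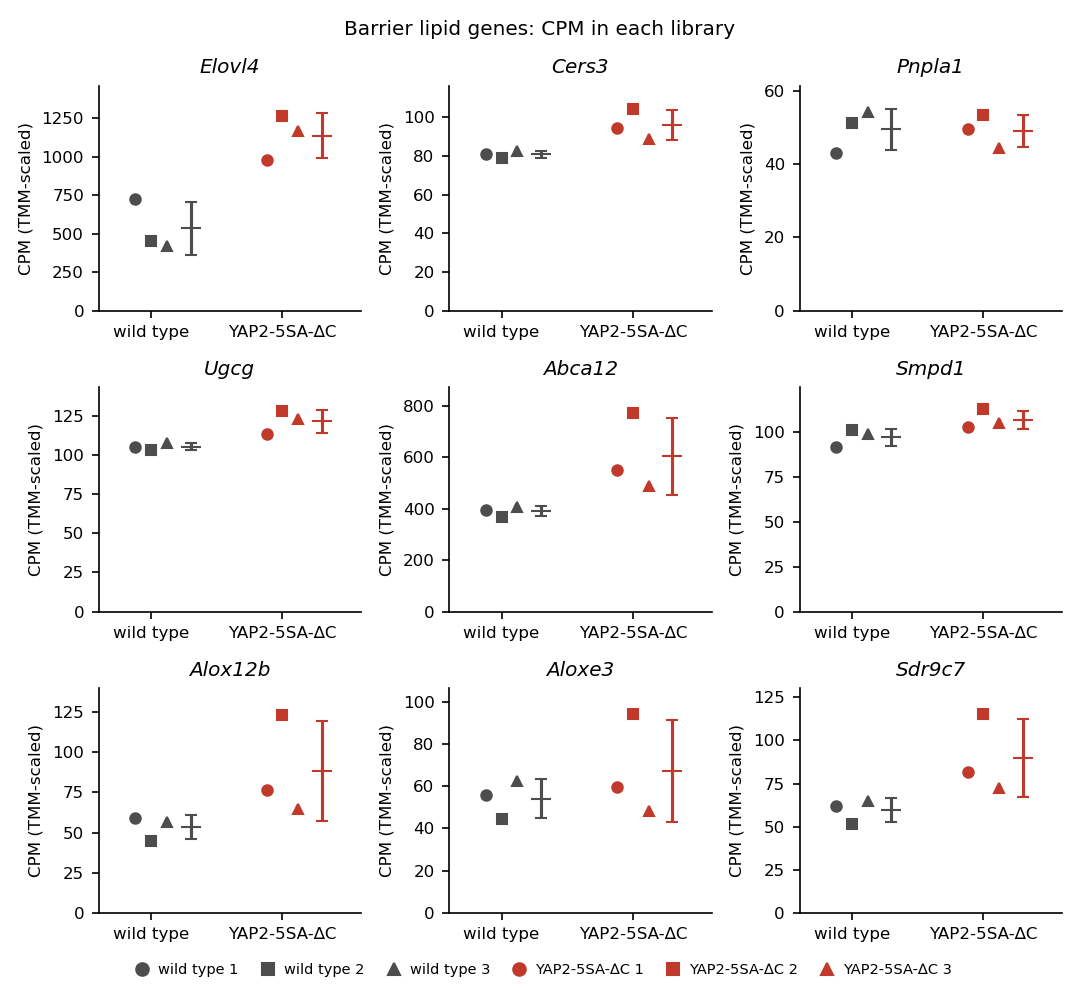
CPM (TMM-scaled, linear axis from 0) of the 9 barrier lipid genes in each of the 6 libraries, with bars for the mean and SD of 3 libraries per genotype. The groups are apart for 7 genes and overlap for *Pnpla1* and *Aloxe3*, and YAP2-5SA-∆C replicate 2 (red square) is the highest transgenic library in all 9 panels.

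The stretches just upstream of the annotated starts are shown for the 4 genes that both the likelihood-ratio test and DESeq2 called higher, to let their sequences be compared. They come from RefSeq promoters on GRCm38.p6, are written 5′ to 3′ on the strand of the gene, and lie before both the RefSeq start and the GENCODE gene. *Elovl4* is on the minus strand at chr9:83806306-83806555, *Sdr9c7* on the plus strand at chr10:127898285-127898517, *Alox12b* on the plus strand at chr11:69156822-69156988 and *Abca12* on the minus strand at chr1:71414911-71415160. Capitals mark each base that matches any of the 6 motifs searched.
Elovl4: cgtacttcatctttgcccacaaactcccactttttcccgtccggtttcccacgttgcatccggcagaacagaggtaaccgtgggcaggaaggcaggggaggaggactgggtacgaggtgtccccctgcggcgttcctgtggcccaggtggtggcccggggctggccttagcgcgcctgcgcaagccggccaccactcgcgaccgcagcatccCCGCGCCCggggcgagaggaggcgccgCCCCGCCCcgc
Sdr9c7: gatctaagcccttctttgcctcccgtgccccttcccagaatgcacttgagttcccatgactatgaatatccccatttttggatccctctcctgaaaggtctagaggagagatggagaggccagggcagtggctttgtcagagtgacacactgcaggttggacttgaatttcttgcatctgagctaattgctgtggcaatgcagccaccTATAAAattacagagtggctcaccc
Alox12b: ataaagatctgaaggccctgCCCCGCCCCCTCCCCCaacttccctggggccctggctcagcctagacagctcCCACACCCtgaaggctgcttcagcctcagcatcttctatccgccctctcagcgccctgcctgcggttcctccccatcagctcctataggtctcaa
Abca12: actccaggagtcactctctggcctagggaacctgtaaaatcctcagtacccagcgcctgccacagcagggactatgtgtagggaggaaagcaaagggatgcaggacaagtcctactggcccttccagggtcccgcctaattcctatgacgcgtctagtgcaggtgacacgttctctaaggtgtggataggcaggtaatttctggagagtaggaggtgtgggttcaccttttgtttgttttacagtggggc

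The capitals in *Elovl4* and *Alox12b* are the KLF/SP motif CCNCNCCC, those in *Sdr9c7* are the TATA box TATAAA at position -42 from the RefSeq start, and *Abca12* had no match. Promoters of 300 bases, from 250 before to 50 after the RefSeq start, were found for 8 of the 9 genes, all but *Aloxe3*, and both strands were searched. TEAD factors are the main DNA-binding partners of YAP, and their core GGAATG was in 0 of the 8 promoters, against 14.7% of 32851 RefSeq promoters. With only 8 promoters, a count of 0 cannot be told from that share. Sites outside these windows, such as enhancers, were not searched. The study looked for YAP/TEAD motifs in untranslated regions after the coding sequence. The AP-1 motif TGANTCA (7.8% of all promoters) and the GRHL motif AACNNGTT (4.2%) were also in none of the 8. The KLF/SP motif was in 5 promoters, those of *Alox12b*, *Elovl4*, *Pnpla1*, *Ugcg* and *Smpd1*, against 49.5% of all promoters, and neighbouring matches of it overlap. The C/EBP motif TTGCNNAA was in *Pnpla1* alone among the 8 (10.8% of all promoters), as was the TATA box in *Sdr9c7* (13.6%). Base composition ran from 81.3% GC in *Ugcg* and 71.0% in *Elovl4* to 50.7% in *Cers3*, and from 53 CpG in *Ugcg* and 35 in *Elovl4* to 2 in *Sdr9c7*, around an all-promoter median of 52.7% GC and 7 CpG.

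Among the genes that build acylceramide, *Elovl4* had the largest difference. *Elovl4* (ENSMUSG00000032262, chromosome 9 from 83778692 to 83806277 on GRCm38), the elongase for very long chains, had 728.5, 455.0 and 417.6 CPM in the wild type libraries, against 981.6, 1265 and 1169 CPM in the transgenic ones. All 3 transgenic libraries were above all wild type libraries, and wild type replicate 1 lay well above the other wild type mice. The means were 534 ± 170 and 1138 ± 144 CPM (SD, n = 3), and the quasi-likelihood fit gave a log2 fold change of 1.09 (standard error 0.22, FDR = 0.0533). The FDR was 4.81e-05 in the likelihood-ratio test, 1.46e-06 in DESeq2 and 0.0538 in voom. In fits with 1 library removed, its FDR was 0.0306 without wild type replicate 1 and between 0.0502 and 0.191 in the other 5 fits, the highest without wild type replicate 2.

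*Cers3* (ENSMUSG00000030510, chromosome 7 from 66743504 to 66823691), the ceramide synthase that takes these long chains, had 81.1, 78.8 and 82.6 CPM in the wild type libraries, against 94.3, 104.3 and 88.8 CPM in the transgenic ones. The groups did not overlap, and the wild type libraries lay close together. The difference was small, from 80.8 ± 1.90 to 95.8 ± 7.86 CPM (SD, n = 3), and the quasi-likelihood fit gave a log2 fold change of 0.25 (standard error 0.07, FDR = 0.0932), while the likelihood-ratio FDR was 0.346. *Pnpla1* (ENSMUSG00000043286, chromosome 17 from 28858411 to 28890309), the transacylase that completes acylceramide, had 43.2, 51.1 and 54.1 CPM in the wild type libraries, against 49.4, 53.3 and 44.4 CPM in the transgenic ones. The groups overlapped throughout, with means of 49.5 ± 5.68 and 49.0 ± 4.48 CPM (SD, n = 3). The fitted log2 value was -0.01 (standard error 0.11, quasi-likelihood FDR = 0.953), and its sign changed with scaling. An opposite-strand gene, *Pnpla1os*, shares 644 bases of exon with *Pnpla1*, and the strand setting of the counting is not given in the sources used here, so reads of the pair may not have been told apart.

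Of the genes that load the lipids for secretion, *Abca12* had the larger fold change. *Abca12* (ENSMUSG00000050296, chromosome 1 from 71242276 to 71414910), the lipid transporter of the lamellar body, had 395.8, 367.2 and 407.3 CPM in the wild type libraries, against 548.2, 772.4 and 486.9 CPM in the transgenic ones. The wild type libraries lay close together and below all transgenic libraries, which were spread widely. The means were 390.1 ± 20.6 and 602.5 ± 150 CPM (SD, n = 3), and the quasi-likelihood fit gave a log2 fold change of 0.63 (standard error 0.17, FDR = 0.0771), while the likelihood-ratio FDR was 0.0124. Without YAP2-5SA-∆C replicate 2, the highest library, the log2 fold change of *Abca12* was 0.43 and its FDR 0.0303. That fit called 5.46% of all tested genes, against 1.91% with all 6 libraries. Without each of the other libraries the FDR of *Abca12* was between 0.0906 and 0.228.

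*Ugcg* (ENSMUSG00000028381, chromosome 4 from 59189257 to 59222833), the glucosylceramide synthase, had 105.0, 102.8 and 107.2 CPM in the wild type libraries, against 113.3, 128.0 and 122.8 CPM in the transgenic ones. The groups were apart by a narrow margin. The means were 105.0 ± 2.22 and 121.4 ± 7.44 CPM (SD, n = 3), and the quasi-likelihood fit gave a log2 fold change of 0.21 (standard error 0.06, FDR = 0.0989). *Smpd1* (ENSMUSG00000037049, chromosome 7 from 105554360 to 105558389), which frees ceramide from sphingomyelin after secretion, had 91.3, 100.6 and 98.4 CPM in the wild type libraries, against 102.6, 112.3 and 104.9 CPM in the transgenic ones. Its lowest transgenic library was barely above its highest wild type library. The means of *Smpd1* were 96.7 ± 4.88 and 106.6 ± 5.09 CPM (SD, n = 3), and the quasi-likelihood fit gave a log2 fold change of 0.14 (FDR = 0.22).

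The 3 genes of linoleate oxidation shared the order of the transgenic libraries, and so did *Cers3*, *Pnpla1*, *Abca12* and the summed granular keratinocyte genes. *Alox12b* (ENSMUSG00000032807, chromosome 11 from 69156989 to 69169792), the lipoxygenase that acts at the start of this route, had 59.2, 44.8 and 56.6 CPM in the wild type libraries, against 76.7, 123.3 and 64.4 CPM in the transgenic ones. All transgenic libraries were higher than all wild type libraries, and replicate 2 was far above the other transgenic mice. The means were 53.5 ± 7.68 and 88.1 ± 31.1 CPM (SD, n = 3), and the quasi-likelihood fit gave a log2 fold change of 0.72 (standard error 0.24, FDR = 0.122), while the likelihood-ratio FDR was 0.0243. Without YAP2-5SA-∆C replicate 2 the log2 fold change of *Alox12b* was 0.42.

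*Aloxe3* (ENSMUSG00000020892, chromosome 11 from 69125896 to 69149115) lies next to *Alox12b* on the same chromosome and encodes the lipoxygenase that turns the hydroperoxide into an epoxy alcohol. It had 55.7, 44.2 and 62.4 CPM in the wild type libraries, against 59.6, 94.3 and 48.1 CPM in the transgenic ones. The groups overlapped, and transgenic replicate 2 alone was above all wild type libraries. The means were 54.1 ± 9.20 and 67.3 ± 24.1 CPM (SD, n = 3), the quasi-likelihood FDR was 0.455, and the log2 fold change of 0.32 (standard error 0.25) became 0.01 without that library. *Sdr9c7* (ENSMUSG00000040127, chromosome 10 from 127898518 to 127911761), the dehydrogenase that follows, had 62.0, 51.7 and 64.8 CPM in the wild type libraries, against 81.9, 115.3 and 72.5 CPM in the transgenic ones. Its groups did not overlap, and within each genotype the order of its libraries was that of *Aloxe3*, *Cers3* and *Abca12*. The means of *Sdr9c7* were 59.5 ± 6.88 and 89.9 ± 22.5 CPM (SD, n = 3), and the quasi-likelihood fit gave a log2 fold change of 0.60 (standard error 0.18, FDR = 0.096), while the likelihood-ratio FDR was 0.028. Without YAP2-5SA-∆C replicate 2 the log2 fold change of *Sdr9c7* was 0.39.

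Levels were compared between genes per kilobase of exon. In wild type skin *Elovl4* was by far the most abundant of the 9, at 176 ± 56.1 CPM per kilobase (SD, n = 3). *Smpd1*, *Abca12*, *Cers3*, *Alox12b*, *Ugcg* and *Sdr9c7* followed with mean levels from 28.99 down to 19.6 CPM per kilobase, and in that order each gene's range over the 3 mice overlapped that of its neighbour. *Pnpla1* at 10.2 and *Aloxe3* at 8.46 CPM per kilobase were lowest, below the range of *Sdr9c7* and overlapping each other. In YAP2-5SA-∆C skin the levels of *Elovl4*, *Abca12* and *Alox12b* were highest, at 376, 40.7 and 36.3 CPM per kilobase, and *Pnpla1* was last at 10.1. These levels depend on the length used. With the longest coding transcript (3019 bases) in place of all exons (6397 bases), the wild type level of *Aloxe3* was 17.9 CPM per kilobase, and its range overlapped that of *Sdr9c7* and lay above that of *Pnpla1*. *Abca12* then also moved above *Smpd1* and *Ugcg* above *Cers3* in wild type skin, and *Smpd1* moved above *Alox12b* and *Ugcg* above *Cers3* in transgenic skin.

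The genes fell into different patterns across mice as well as between genotypes. YAP2-5SA-∆C replicate 2 was the highest transgenic library for all 9 genes, by a factor over the mean of the other transgenic mice that ran from 1.08 for *Smpd1* and *Ugcg* to 1.75 for *Alox12b* and *Aloxe3*. Wild type replicate 2 was the lowest wild type library for 6 genes, *Alox12b*, *Aloxe3*, *Cers3*, *Abca12*, *Ugcg* and *Sdr9c7*. The level of *Elovl4* in wild type replicate 1 was 1.67 times the mean of the other wild type mice, while the same factor was 0.82 for *Pnpla1* and between 0.92 and 1.17 for the other 7 genes. Pearson's r between each gene's log2 CPM and the median profile of the 9 genes over the 6 libraries, which include both genotypes and share their depth, was 0.99 for *Alox12b* and *Sdr9c7*, 0.74 for *Elovl4* and 0.30 for *Pnpla1*. Each of the 9 genes is itself part of that median, which can raise its r. The 5 tested genes outside the 9 whose profile was most like this median profile were *Grb2*, *Skint11*, *Srpk1*, *Man2a1* and *Man1a*, with r between 0.9949 and 0.9969 over 6 libraries.

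Summed over their lists, granular layer and sebaceous gland markers were also highest in YAP2-5SA-∆C replicate 2. *Krt1*, a keratin of the spinous layer, had 1366, 1394 and 1544 CPM in the wild type libraries, against 2005, 3194 and 1892 CPM in the transgenic ones, and *Krt10*, its partner, 2374, 1668 and 2099 against 2534, 4461 and 2163 CPM. Like the barrier lipid genes, both keratins were highest in YAP2-5SA-∆C replicate 2. *Lor*, which encodes the envelope protein loricrin, had 190.1, 120.8 and 198.0 CPM in the wild type libraries, against 207.1, 347.1 and 124.6 CPM in the transgenic ones, with overlapping groups (FDR = 0.499), and *Flg* was not analysed here. Of 6 granular layer markers 0 were called by the quasi-likelihood test, which called 1.91% of all tested genes. At an unadjusted p below 0.05 in that test 3 were higher, as 13.3% of all tested genes were. In each transgenic library 3 were higher, as 15.5% of all tested genes were. The summed level of the 6 markers was 4392 to 5040 CPM in wild type against 4968 to 8528 CPM in transgenic skin. *Krt6b*, a keratin of stressed epidermis, had 23.5, 44.6 and 72.5 CPM in the wild type libraries, against 429.5, 181.2 and 400.1 CPM in the transgenic ones and rose (log2 fold change 2.85, standard error 0.48, FDR = 0.0436 in the quasi-likelihood test). It was lowest in the transgenic mouse in which the barrier lipid genes were highest.

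The 9 genes were then set against keratinocyte RNA of the same library, as reads per 1000 reads of *Krt5*, *Krt14*, *Krt1* and *Krt10*, keratins of the basal and spinous layers that summed to 5423 to 6463 CPM in wild type against 8570 to 12840 CPM in transgenic skin. *Krt14*, a part of this sum, rose (log2 fold change 0.95, quasi-likelihood FDR = 0.03). On this scale, which does not depend on library scaling, none of the 9 genes was higher in each transgenic library. *Cers3* had 12.6, 14.5 and 13.5 reads per 1000 keratin reads in wild type against 11.01, 8.13 and 10.2 in transgenic skin. *Pnpla1* had 6.68, 9.43 and 8.85 against 5.77, 4.15 and 5.10. Both were lower in all transgenic libraries, as were *Aloxe3*, *Ugcg* and *Smpd1*. The log2 differences in this ratio were -0.45 for *Aloxe3*, -0.48 for *Cers3*, -0.51 for *Ugcg*, -0.58 for *Smpd1* and -0.73 for *Pnpla1*, and a two-sided exact permutation gave p = 0.1 for each, the smallest value that 3 against 3 libraries allow. Over all 40 ratios compared, to markers and within families, 23 reached this smallest p, and the Benjamini-Hochberg adjusted p of these exact tests was 0.174 at the lowest.

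Against 6 granular layer markers, the same 5 genes overlapped between the genotypes, with smaller log2 differences of -0.16 for *Aloxe3*, -0.19 for *Cers3*, -0.22 for *Ugcg*, -0.29 for *Smpd1* and -0.44 for *Pnpla1* (exact permutation p from 0.2 to 0.4). The ratios of the other 4 genes to the keratins overlapped between the genotypes. They differed by a log2 value of -0.05 for *Alox12b* (exact permutation p = 0.8), -0.12 for *Abca12*, -0.15 for *Sdr9c7* and 0.41 for *Elovl4* (exact permutation p = 0.2 for each of these 3). Against the granular markers, *Alox12b*, *Abca12* and *Elovl4* were higher in all transgenic libraries, by log2 values of 0.25, 0.17 and 0.70 (exact permutation p = 0.1 for each). The reference therefore set the sign for *Alox12b*, *Abca12* and *Sdr9c7*. The part of keratinocyte number in the CPM differences was not tested beyond these ratios.

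**Figure D2:**
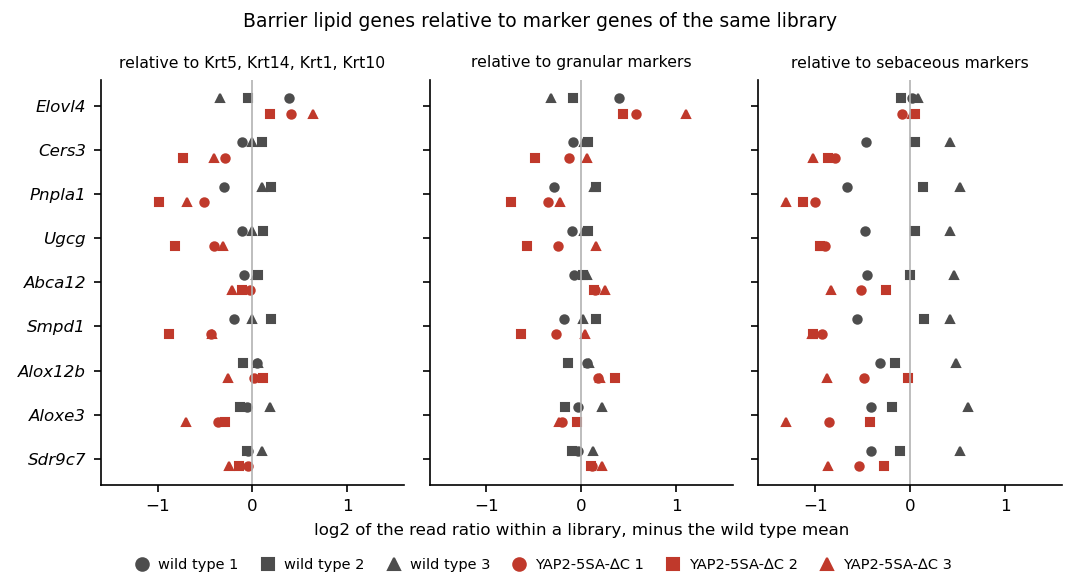
Ratio of each barrier lipid gene to 3 sets of marker genes within a library, as log2 minus the wild type mean of that gene (x axis), for 3 wild type (grey) and 3 YAP2-5SA-∆C (red) libraries. Relative to the 4 keratins, *Cers3*, *Pnpla1*, *Ugcg*, *Smpd1* and *Aloxe3* lie lower in all transgenic libraries, and relative to the sebaceous markers *Elovl4* lies close to 0 in all 6.

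*Elovl4* kept a nearly constant ratio to markers of the sebaceous gland, a comparison made after its values were seen. The 7 sebaceous markers, among them the wax synthase gene *Awat1* and the cholesterol acyltransferase gene *Soat1*, summed to 508.3, 345.1 and 278.5 CPM in the wild type libraries, against 737.7, 863.0 and 815.3 CPM in the transgenic ones. Most of the sum came from *Far2*, with 109.2 to 236.1 CPM in wild type against 354.5 to 433.2 in transgenic skin, and from *Soat1*, with 124.7 to 201.2 against 297.0 to 329.9. Of these markers 6, all but *Mc5r*, were higher in each transgenic library, as 15.5% of all tested genes were, 1 passed the quasi-likelihood test (*Soat1*), which called 1.44% of all tested genes higher, and the sum was highest in the wild type mouse with the highest *Elovl4*. *Elovl4* reads per 1000 reads of these markers were 1433, 1318 and 1499 in wild type against 1331, 1466 and 1433 in transgenic skin, a log2 difference of -0.01 (exact permutation p = 1.0). The other 8 genes differed on this scale by log2 values from -0.46 (*Alox12b*) to -1.15 (*Pnpla1*). Whether sebaceous cells contribute to the level of *Elovl4* was not tested.

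The makeup of the enzyme families was compared within each library. Per kilobase of exon, the ratio of *Aloxe3* to *Alox12b* was 0.358, 0.375 and 0.419 in wild type against 0.295, 0.291 and 0.284 in transgenic skin. The groups were apart, and the transgenic libraries were nearly equal. The log2 difference in this ratio was -0.40 (exact permutation p = 0.1, the smallest possible). With the coding transcript length of *Aloxe3* the mean levels per kilobase of the 2 genes were closer, at 17.9 and 22.02 in wild type, while the log2 difference between genotypes does not depend on length.

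Among the 6 ceramide synthases, *Cers3* made up 36.6%, 41.3% and 43.8% of the reads per kilobase in wild type against 37.1%, 37.6% and 32.99% in transgenic skin. These shares overlapped (log2 difference -0.18, exact permutation p = 0.3). *Cers4* and *Cers5*, which use shorter chains than *Cers3*, had mean shares of 13.7% and 18.8% in wild type against 19.6% and 24.0% in transgenic skin, higher in all transgenic libraries. The shares of *Cers2* and *Cers6* were lower in all transgenic libraries, while their CPM overlapped between genotypes, at means of 34.1 against 34.4 for *Cers2* and 64.5 against 66.2 for *Cers6*. *Cers4* itself had 105.0 ± 34.2 against 197.1 ± 7.65 CPM (SD, n = 3), the quasi-likelihood FDR was 0.0628, and it was highest among wild type mice in replicate 1, as *Elovl4* was.

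Among the 7 elongases, *Elovl4* made up 47.9%, 41.9% and 44.1% of the reads per kilobase in wild type against 48.6%, 50.9% and 49.5% in transgenic skin. The transgenic shares were higher without overlap, by a narrow margin (log2 difference 0.16, exact permutation p = 0.1). *Elovl6*, which extends palmitate and so acts ahead of *Elovl4*, had a mean share of 17.5% in wild type against 22.4% in transgenic skin. The shares of *Elovl3*, *Elovl5* and *Elovl7* were lower in all transgenic libraries, and that of *Elovl1* overlapped. The CPM of *Elovl3*, *Elovl5* and *Elovl7* themselves were higher in all transgenic libraries, with means of 78.2, 130.5 and 114.6 in wild type against 113.7, 188.4 and 161.6 in transgenic skin.

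**Figure D3:**
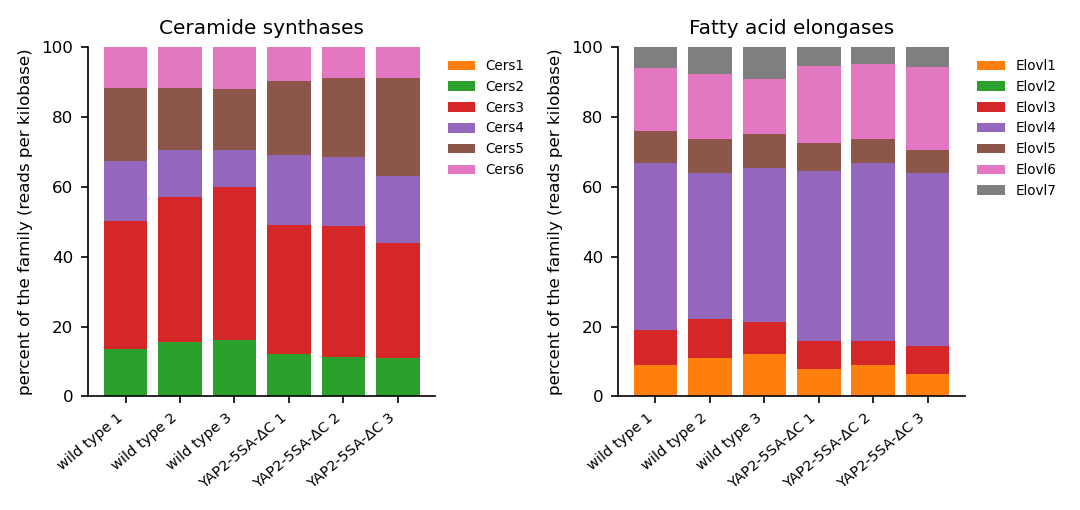
Share of each member of the ceramide synthase (left) and elongase (right) families in the family's reads per kilobase of exon, in percent, for each library. The *Cers3* share is 32.99% to 37.6% in YAP2-5SA-∆C and 36.6% to 43.8% in wild type libraries, and the *Elovl4* share is 48.6% to 50.9% against 41.9% to 47.9%.

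The steps around the 9 genes were examined with 67 other genes of the pathway, of which 65 were tested and *Cers1* and *Elovl2* had too few reads. The quasi-likelihood test called 7 of the 65 higher and 0 lower, where it called 1.44% and 0.464% of all tested genes. At an unadjusted p below 0.05, 35 were higher and 4 lower, where 13.3% and 13.0% of all tested genes were. The likelihood-ratio test called 20 higher and 3 lower, where it called 5.52% and 4.87% of all tested genes, and DESeq2 called 27 higher and 1 lower, where it called 6.34% and 4.14%. The 7 quasi-likelihood calls lay in 2 steps. In fatty acid elongation and ω-hydroxylation 5 of 14 genes rose, *Elovl6*, *Elovl7*, *Hacd2*, *Cyp4f39* and *Slc27a4*, and among ceramide synthases and desaturases 2 of 6 rose, *Degs1* and *Degs2*. Of the 65 genes 36 were higher and 6 lower without overlap between the genotypes, where 15.5% and 18.2% of all tested genes were, and the median log2 fold change was 0.28.

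*Elovl6* had 582.6, 433.5 and 318.8 CPM in the wild type libraries, against 934.9, 1141 and 1200 CPM in the transgenic ones, with a quasi-likelihood log2 fold change of 1.30 (standard error 0.22, FDR = 0.0436). As for *Elovl4* and the summed sebaceous markers, wild type replicate 1 was the highest and replicate 3 the lowest wild type library, and the part of sebaceous cells in the *Elovl6* values was not tested. *Hacd2*, a dehydratase of the elongation cycle, rose by a log2 fold change of 0.88 (FDR = 0.0451 in the quasi-likelihood test), and *Elovl7*, another elongase, by 0.50 (FDR = 0.0436). *Cyp4f39*, the ω-hydroxylase of very long chains, had 35.3 ± 4.62 CPM in wild type against 54.6 ± 4.63 CPM in transgenic skin (SD, n = 3; log2 fold change 0.63, FDR = 0.0456 in the quasi-likelihood test). *Slc27a4*, which encodes the fatty acid transporter and acyl-CoA synthetase FATP4, rose by a log2 fold change of 0.51 (FDR = 0.0459).

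Of the desaturases, *Degs2*, which makes phytoceramide, had 6.21, 8.22 and 8.66 CPM in the wild type libraries, against 16.1, 19.8 and 20.9 CPM in the transgenic ones. The groups were far apart for so low a gene. The fitted log2 value was 1.30 (standard error 0.16, quasi-likelihood FDR = 0.03), and this FDR was the lowest among the pathway genes. *Degs1*, which makes the common ceramide double bond, had 81.4, 75.0 and 75.9 CPM in the wild type libraries, against 96.0, 108.8 and 100.5 CPM in the transgenic ones, a log2 fold change of 0.39 (FDR = 0.0451).

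The other steps held no call of the quasi-likelihood test. Sphingoid base synthesis (9 genes) was led by *Sptlc3*, a subunit of serine palmitoyltransferase, with 29.9 ± 3.28 CPM in wild type against 60.1 ± 15.8 CPM in transgenic skin (SD, n = 3; log2 fold change 1.01, FDR = 0.0504). Among the 3 partners of acylceramide esterification the lowest p was that of *Nipal4* (log2 fold change 0.44, FDR = 0.0621). The 6 genes of head groups and lamellar bodies had a median log2 fold change of -0.05, with the lowest p for the vesicle trafficking gene *Vipas39* (-0.18, FDR = 0.158).

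Among 7 other genes of lipid oxidation and attachment, *Alox8*, another epidermal lipoxygenase gene, had 37.0, 56.7 and 52.0 CPM in the wild type libraries, against 16.6, 4.001 and 22.2 CPM in the transgenic ones. It was lower in all transgenic libraries and lowest in replicate 2, where *Alox12b* and *Aloxe3* were highest. The hair shaft and inner root sheath genes were also lowest in that library, with summed levels of 6963, 1443 and 8833 CPM in the transgenic mice, and their part in the *Alox8* values was not tested. The fitted log2 value was -1.77 (standard error 0.54, quasi-likelihood FDR = 0.1), the likelihood-ratio FDR was 0.000987, and the quasi-likelihood FDR was 0.0216 without replicate 2. Of 10 genes of ceramide turnover, 8 were higher without overlap between genotypes (15.5% of all tested genes were) and the lowest p was that of *Sgpp2*, a sphingoid base phosphatase gene (log2 fold change 1.03, FDR = 0.0874), and of 4 genes of epidermal lipases and cholesterol sulfation that of the lipase gene *Lipk* (0.54, FDR = 0.0641).

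The number of pathway genes called rested on single libraries. Leaving out YAP2-5SA-∆C replicate 2 gave 15 (5.46% of all tested genes), wild type replicate 1 gave 9 (0.949%) and YAP2-5SA-∆C replicate 1 gave 2 (0.557%). Leaving out any of the other 3 libraries gave 0, there as among all tested genes.

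**Figure D4:**
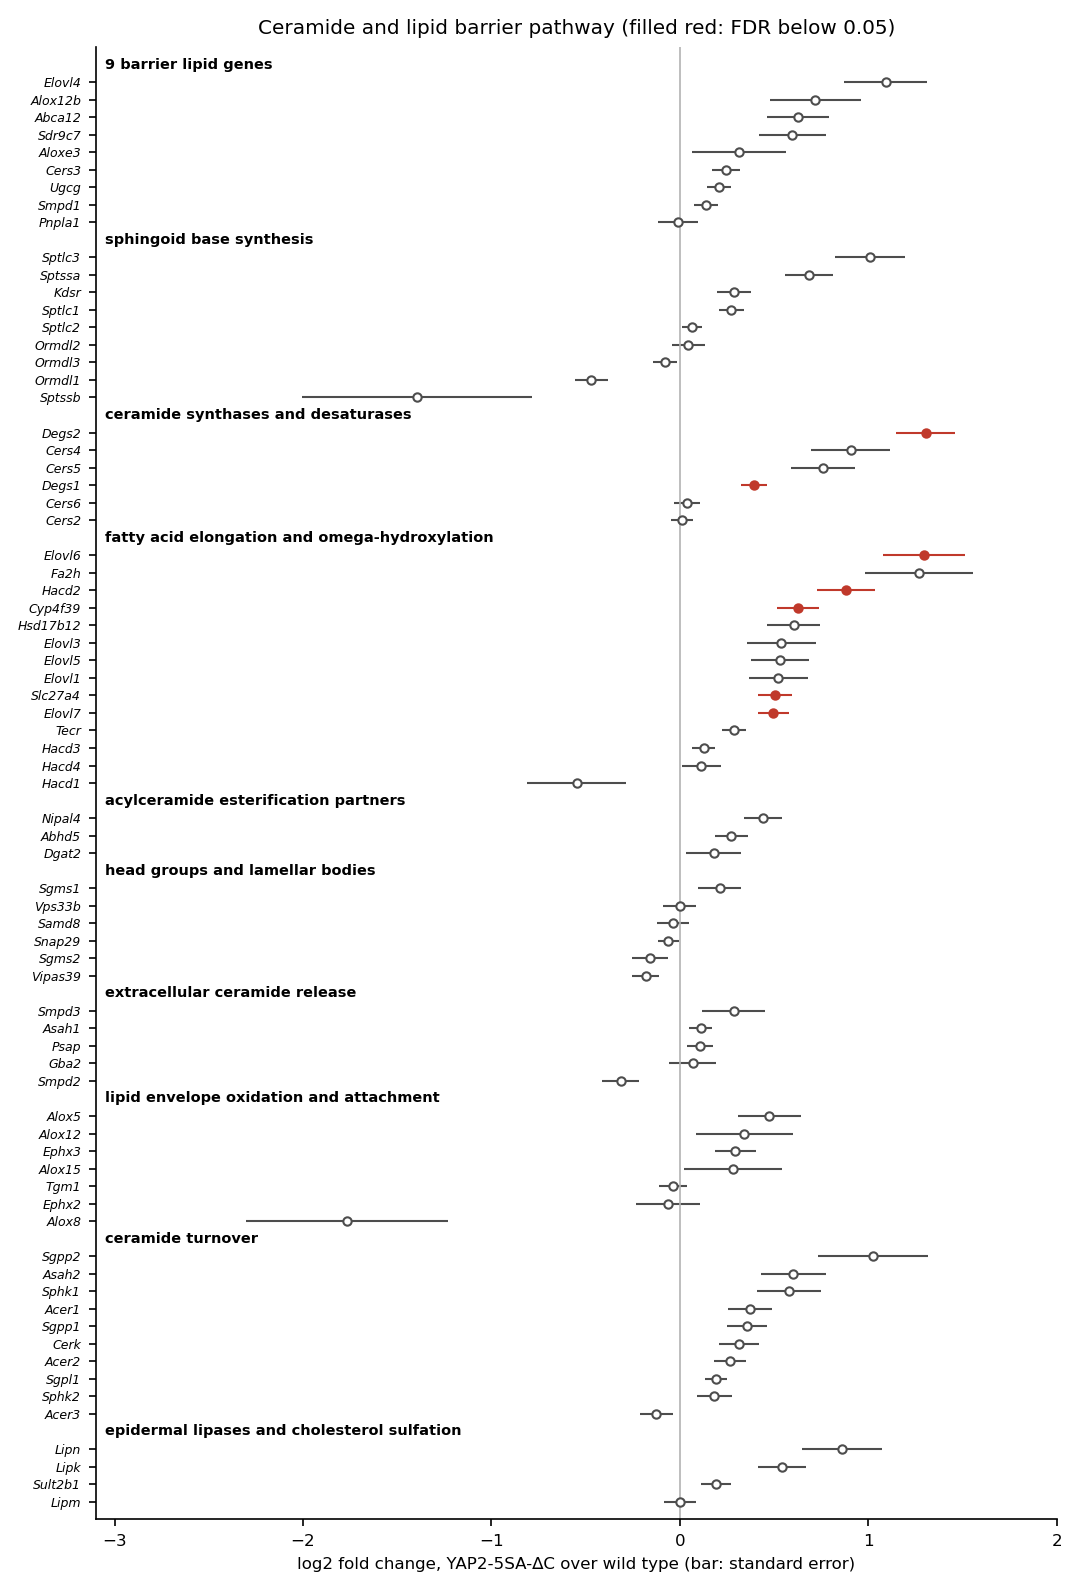
Log2 fold change (YAP2-5SA-∆C over wild type) with its standard error for the 9 barrier lipid genes and the other tested genes of the pathway but 1, grouped by step; filled red points passed the quasi-likelihood test at an FDR threshold of 0.05. The 7 filled points are to the right of 0 and lie in 2 of the steps, and the 9 barrier lipid genes run from 1.09 (*Elovl4*) to -0.01 (*Pnpla1*).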

How the data were processed

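RNA-Seq counts of 6 skin biopsies, 3 per genotype, were analysed. The authors deposited raw counts of reads per Ensembl gene. Per the submitters' processing notes, reads were mapped to GRCm38 with TopHat2 2.0.12 and Bowtie2 2.1.0 and counted with HTSeq, which leaves out reads that fit several genes. Which annotation release and which strand setting were used for counting is not given in the sources used here. The study's methods describe mRNA libraries and the labels a stranded total RNA kit. Replicates of a genotype differed by more than counting noise (chi-square per degree of freedom 14.1 to 76.5), so each was counted as 1 sample. The labels describe each as a separate mouse.

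Genes reaching 1 CPM in at least 3 samples were scaled with TMM and tested with glmQLFit and glmQLFTest in edgeR 4.0.16 (R 4.3.3), genotype being the only term. The p-values were adjusted by Benjamini-Hochberg over 15102 genes. Alternatives were RLE and upper-quartile factors, no filter, a filter of 10 counts, edgeR's likelihood-ratio test with common and tagwise dispersions, voom (limma 3.58.1), DESeq2 1.42.0, the replicate number as a block, and the omission of each library. Replicate numbers gave no sign of pairing the mice: same-numbered mice of the 2 genotypes had correlations of -0.332, -0.228 and -0.0501 of their deviations from the group means. These values cannot show whether mice with different numbers shared a litter. Ratios within a library were compared by two-sided exact permutation tests. Sequences and promoter windows were from RefSeq on GRCm38.p6, and gene positions and exon lengths from GENCODE M21, in which 558 identifiers of the table are absent. The tests were tried on simulated counts.

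The 9 genes, the pathway lists and the marker lists were chosen with earlier results of these data known. The genes named besides the 9 are the pathway genes that passed the test, the gene with the lowest p in each pathway list without one, *Krt1*, *Krt10*, *Lor*, *Flg* and *Krt6b*, the 5 genes most like the median profile, and the relatives in family ratios. The values of 1 pathway gene that this rule would name are not reported here, although it stays in the counts. *Yap1*, *Krt5*, *Krt14*, *Awat1*, *Soat1*, *Far2*, *Mc5r* and *Pnpla1os* are named outside this rule, as a check of the transgene, as parts of a reference sum or as an overlapping gene. Added after seeing the data were the sebaceous reference, the ratios and overlap counts without each library or under other scalings, and the order of levels by coding transcript.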

Additional observations from a re-analysis of the deposited data

How the results depend on the processing

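Of the 9 genes, the quasi-likelihood test called 0, with 6 higher at an unadjusted p below 0.05. The number called, all higher, was 1 with upper-quartile factors (2.24% of all genes) and 1 with no filter on low counts (1.40%; *Elovl4* in both), 4 with the likelihood-ratio test and 4 with DESeq2. Leaving out each library gave 0 to 1. The gene called was *Elovl4* without wild type replicate 1 (0.949% of all tested genes) and *Abca12* without YAP2-5SA-∆C replicate 2 (5.46%). For the other pathway genes the count of 7 became 23 with the likelihood-ratio test (20 higher, 3 lower), 28 with DESeq2 (27 higher, 1 lower) and 0 to 15 when each library was left out. With a replicate block, although the numbers gave no sign of pairing the mice, 0 of the 9 genes, 0 of the other pathway genes and 0 of all genes were called, and the FDR of *Elovl4* was 0.172. The log2 fold change of *Pnpla1* changed sign, to 0.009 with upper-quartile factors, 0.001 with no filter, 0.001 with DESeq2 and -0.096 to 0.065 when each library was left out, and no other of the 9 genes changed sign in any of these settings. Set against the granular markers in place of the 4 keratins, the log2 ratio became 0.246 for *Alox12b*, 0.172 for *Abca12* and 0.146 for *Sdr9c7*, and the 5 genes that were lower without overlap against the keratins overlapped between the genotypes. Set against the sebaceous markers, the log2 ratio became -0.006 for *Elovl4*. When each library was left out, the log2 ratio of *Alox12b* to the keratins ran from -0.125 to 0.062, the latter without YAP2-5SA-∆C replicate 3. The cause of these changes was not tested. The count of 7 genes without overlap between genotypes was the same with RLE and upper-quartile factors. With 3 mice per genotype no exact test of a single ratio can go below p = 0.1.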
